A study of Mus musculus with 8 samples.

Results

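The genes described here encode the NFκB transcription factors and their IκB partners, measured by mRNA sequencing in mouse bone marrow-derived macrophages (BMDM) exposed to bilirubin. They are 10 genes, taken by symbol (*Rela*, *Relb*, *Rel*, *Nfkb1*, *Nfkb2*, *Nfkbia*, *Nfkbib*, *Nfkbie*, *Nfkbiz* and *Bcl3*), out of 53819 rows of the gene table, and all 10 were among the 13722 genes expressed highly enough to be tested. Bone marrow came from 4 female BALB/cJ mice aged 8 weeks and was differentiated in M-CSF at 25 ng/mL for 5 days. One culture of each mouse then received 2.5 µM bilirubin, the end product of heme breakdown, and the other received the DMSO vehicle, both for 48 h and both without any other stimulus. This gave 4 vehicle and 4 bilirubin libraries, paired by mouse, with 37747315 to 47071714 counts on genes for vehicle and 34142781 to 41054034 for bilirubin. The genes were selected on their known family membership with the log2 fold changes of this same contrast, bilirubin over vehicle, already known, so their calls and adjusted p-values below describe the fit and are not independent evidence of a direction.

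NFκB proteins bind DNA as dimers drawn from 5 subunits. In the canonical pathway, dimers that contain RelA or c-Rel, usually with the product of *Nfkb1*, are held in the cytoplasm by IκB proteins until the IκB kinase complex marks the inhibitor for destruction. In the noncanonical pathway, the kinase NIK drives the processing of the *Nfkb2* precursor, which otherwise keeps RelB inactive. IκBα, IκBβ and IκBε (*Nfkbia*, *Nfkbib* and *Nfkbie*) are the classical cytoplasmic inhibitors, whereas IκBζ (*Nfkbiz*) and Bcl-3 (*Bcl3*) act in the nucleus, where they bind NFκB dimers on DNA and alter which genes are transcribed. Several of these genes, among them *Nfkbia*, *Nfkb2* and *Relb*, are textbook targets of NFκB itself.

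Because several of these genes are known NFκB targets, their promoters were searched for the NFκB consensus motif on both strands. The motif was GGGRNNYYCC, where R is A or G, Y is C or T and N is any base. Only exact matches were taken, so near matches are not marked or counted. The windows are the 250 bases upstream of each RefSeq start site on GRCm38.p6, which is not the build of the expression files. Of the 10 genes, 7 had a window, and *Nfkb2* had 3 because it has several start sites. *Relb*, *Nfkb1* and *Nfkbiz* had none. The first *Nfkb2* window (chr19:46304487-46304736, plus strand), and those of *Nfkbia* (chr12:55492648-55492897, minus strand) and *Nfkbie* (chr17:45555450-45555699, plus strand), are shown. Their genes had the largest increases with bilirubin among the 7 with a window. The windows of *Rel* (chr11:23770970-23771219, minus strand) and *Rela* (chr19:5637291-5637540, plus strand) are shown because their genes did not pass the test. Those of *Nfkbib* and *Bcl3* are not shown. Sequences run 5′ to 3′ on the strand of the gene, and capitals mark bases inside a motif match on either strand.
Nfkb2: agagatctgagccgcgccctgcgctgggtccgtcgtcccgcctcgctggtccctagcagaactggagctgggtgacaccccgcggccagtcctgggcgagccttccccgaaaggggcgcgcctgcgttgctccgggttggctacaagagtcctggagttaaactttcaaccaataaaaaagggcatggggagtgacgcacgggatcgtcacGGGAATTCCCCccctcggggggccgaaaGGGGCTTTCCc
Nfkbia: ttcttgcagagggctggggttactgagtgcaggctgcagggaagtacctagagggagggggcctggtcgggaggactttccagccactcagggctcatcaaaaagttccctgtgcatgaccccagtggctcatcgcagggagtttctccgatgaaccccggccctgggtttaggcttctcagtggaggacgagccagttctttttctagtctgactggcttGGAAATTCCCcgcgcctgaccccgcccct
Nfkbie: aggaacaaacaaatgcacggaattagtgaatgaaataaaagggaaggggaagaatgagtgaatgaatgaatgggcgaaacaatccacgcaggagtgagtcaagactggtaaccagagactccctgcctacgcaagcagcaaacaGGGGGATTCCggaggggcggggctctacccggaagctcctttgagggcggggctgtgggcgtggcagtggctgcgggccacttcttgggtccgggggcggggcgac
Rel: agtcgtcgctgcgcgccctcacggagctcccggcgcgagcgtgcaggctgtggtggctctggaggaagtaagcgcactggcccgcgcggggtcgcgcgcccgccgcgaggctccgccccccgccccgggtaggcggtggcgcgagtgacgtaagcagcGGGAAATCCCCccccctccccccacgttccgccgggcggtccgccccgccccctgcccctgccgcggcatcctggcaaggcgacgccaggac
Rela: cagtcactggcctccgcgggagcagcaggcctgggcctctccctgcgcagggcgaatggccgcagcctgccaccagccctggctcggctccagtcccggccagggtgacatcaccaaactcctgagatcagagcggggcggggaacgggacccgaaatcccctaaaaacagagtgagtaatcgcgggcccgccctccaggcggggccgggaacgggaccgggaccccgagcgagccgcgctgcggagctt

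The first *Nfkb2* window held 3 matches, beginning at positions -39, -38 and -11 from the start site, of which the first and second overlap. The other *Nfkb2* windows, not shown, held 1 match each, at -236 and -225. The window of *Nfkbia* held 1 match at -29 and that of *Nfkbie* 1 match at -106. The *Rel* window, from a gene that did not pass the test, held 2 overlapping matches at -92 and -91. No match to these letters was found in the windows of *Rela*, *Nfkbib* and *Bcl3*, and the latter 2 genes were called higher. In all, 4 of the 7 genes with a window held a match, against 2225 of 27025 gene symbols with a window (8.23%). A match describes the letters of the window and not the binding of a factor, which was not measured here.

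Bilirubin-treated BMDM had higher mRNA levels of the noncanonical subunits, of the classical IκB inhibitors and of the nuclear IκB genes, while the canonical subunits did not pass the test. In edgeR's quasi-likelihood fit with mouse as a covariate, 7 of the 10 genes were higher with bilirubin at an adjusted p under 0.05, and 0 were lower. Among all tested genes 7.53% were called, 4.49% as higher and 3.04% as lower. The median log2 fold change of the 10 genes was 0.61, beside -0.0018 over all tested genes. Depth-scaled counts (CPM, with TMM scaling) did not overlap between the groups for 8 of the 10 genes, against 10.6% of tested genes, and 9 of the 10 were higher in the bilirubin culture of all 4 mice, against 14.5%. In these bulk cultures, a change in the number of cells of a type and a change in RNA per cell cannot be told apart.

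**Figure D1:**
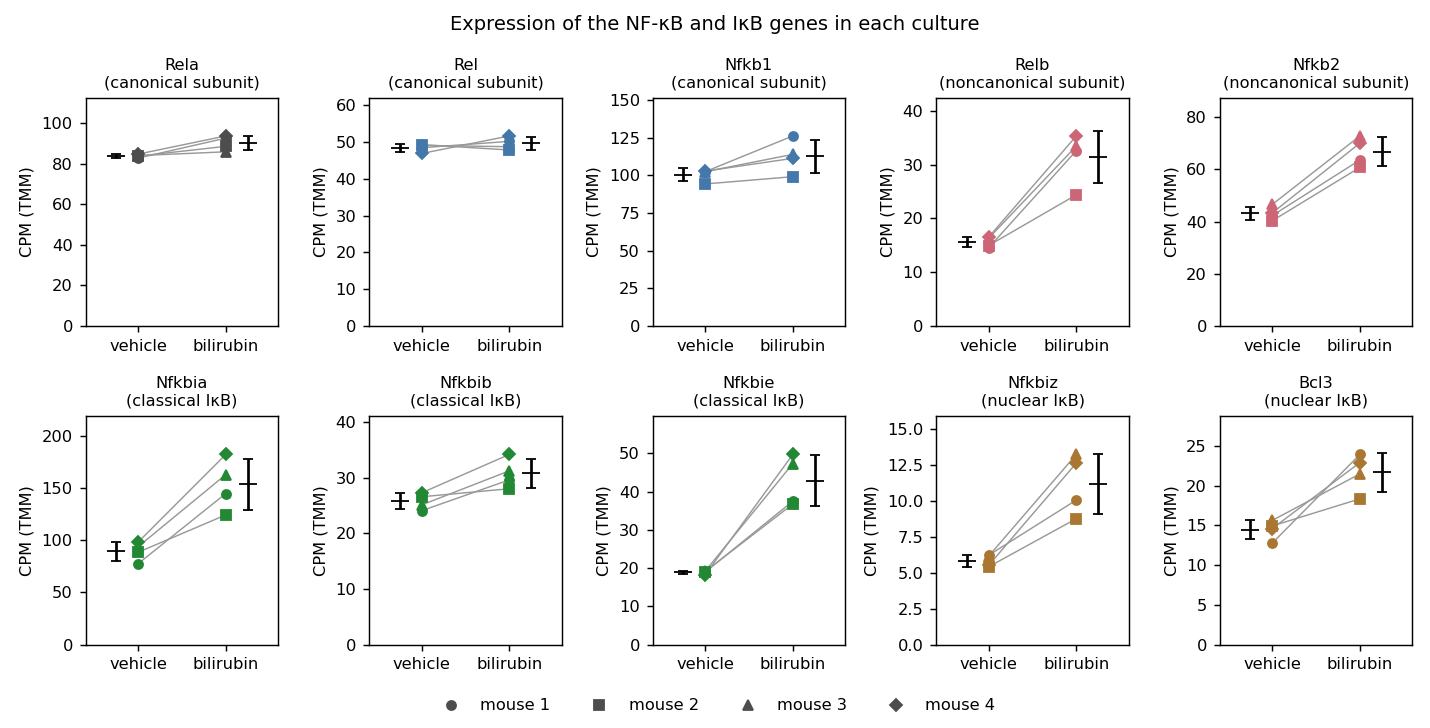
Each panel plots CPM (y axis, linear, from 0) of 1 gene in the vehicle and bilirubin cultures, with a line joining the cultures of 1 mouse and bars giving the mean ± SD of 4 mice. Every line rises steeply for Nfkbie and Relb, whereas the groups overlap for Rel and Nfkb1.

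*Relb* encodes RelB, the subunit that pairs with the processed product of *Nfkb2* in the noncanonical pathway. It lies at chr7:19339017-19363425 on GRCm39. *Relb* stood at 14.6, 14.97, 16.3 and 16.5 CPM in vehicle cultures of mice 1 to 4 and at 32.6, 24.4, 33.5 and 35.3 CPM in their bilirubin cultures. All bilirubin cultures lay above all vehicle cultures, and that of mouse 2 was the lowest of them. The fold change was 2.01 (log2 1.00, SE 0.078, adjusted p = 2.21e-04 in edgeR).

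*Nfkb2* encodes the precursor whose processing defines the noncanonical pathway (chr19:46292759-46303812). Its levels were 42.3, 40.3, 46.6 and 43.3 CPM with vehicle and 63.6, 60.8, 72.8 and 70.1 CPM with bilirubin. The groups were well apart and the change was similar in each mouse, with log2 differences of 0.59 to 0.69. The fold change was 1.55 (log2 0.63, SE 0.039), and the adjusted p of 7.58e-05 in edgeR was the smallest among the 10 genes.

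The canonical subunits did not pass the test. *Rela*, which encodes the p65 transactivating subunit (chr19:5687493-5698161), was at 82.7, 83.6, 83.9 and 84.6 CPM with vehicle and at 92.5, 88.4, 85.8 and 93.6 CPM with bilirubin. The groups did not overlap, but the gap was narrow and the gene was not called (log2 0.11, SE 0.038, adjusted p = 0.154 in edgeR). *Nfkb1*, which encodes the precursor of the usual partner of RelA (chr3:135290264-135397742), was at 102.4, 94.2, 102.4 and 102.7 CPM with vehicle and at 126.1, 99.1, 113.9 and 111.2 CPM with bilirubin. The bilirubin culture of mouse 2 was below most vehicle cultures, so the groups overlapped even though CPM was higher in the bilirubin culture of every mouse (log2 0.16, SE 0.044, adjusted p = 0.0702 in edgeR). On the TPM scale *Nfkb1* was lower with bilirubin in mice 2 (50.1 and 49.4 TPM) and 4 (56.3 and 56.1 TPM). Without a filter on low counts *Nfkb1* was called, with an adjusted p of 0.0193.

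*Rel*, which encodes c-Rel (chr11:23686847-23721264), stood at 48.5, 49.35, 49.1 and 46.9 CPM with vehicle and at 50.2, 47.9, 48.8 and 51.7 CPM with bilirubin. The groups overlapped in part, and the bilirubin culture was higher in 2 of 4 mice. Its log2 fold change was 0.035 (SE 0.044, adjusted p = 0.734 in edgeR).

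All 3 classical inhibitors were called higher. *Nfkbie*, the gene of IκBε (chr17:45866585-45874661), was at 18.9, 19.1, 19.2 and 18.3 CPM with vehicle and at 37.5, 36.8, 47.3 and 49.7 CPM with bilirubin. The vehicle cultures were tightly grouped, and mice 3 and 4 rose more than mice 1 and 2. Its 2.25-fold change (log2 1.17, SE 0.086, adjusted p = 1.80e-04 in edgeR) was the greatest of the 10 genes.

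*Nfkbia*, the gene of IκBα (chr12:55535332-55539432), was at 77.3, 88.3, 93.6 and 98.0 CPM with vehicle and at 144.5, 124.0, 162.6 and 181.9 CPM with bilirubin. The groups did not overlap, and the lowest bilirubin culture was again that of mouse 2. The fold change was 1.71 (log2 0.77, SE 0.067, adjusted p = 3.82e-04 in edgeR). *Nfkbib*, the gene of IκBβ (chr7:28457486-28466937), was at 24.1, 26.6, 25.1 and 27.3 CPM with vehicle and at 29.6, 28.0, 31.3 and 34.2 CPM with bilirubin. The groups were apart by less than 1 CPM at their nearest cultures. Its change was the smallest of those called (log2 0.26, SE 0.057, adjusted p = 0.0323 in edgeR). The *Nfkbib* call was lost under 5 of 12 alternative settings, with an adjusted p of 0.0578 without mouse as a replicate block, 0.0557 with scaling by library size alone, 0.0923 with an offset for transcript length, 0.204 without mouse 3 and 0.182 without mouse 4.

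Both nuclear IκB genes were called higher. *Nfkbiz*, the gene of IκBζ and the least expressed of the 10 (chr16:55631738-55659262), was at 6.205, 5.40, 6.14 and 5.50 CPM with vehicle and at 10.0, 8.75, 13.2 and 12.6 CPM with bilirubin. All 4 bilirubin cultures lay above the vehicle cultures, those of mice 3 and 4 by the wider margin. The fold change was 1.902 (log2 0.93, SE 0.11, adjusted p = 0.00187 in edgeR). *Bcl3*, which encodes a coactivator of homodimers made from the *Nfkb1* and *Nfkb2* products (chr7:19541553-19557570), was at 12.8, 14.9, 15.6 and 14.6 CPM with vehicle and at 23.9, 18.3, 21.5 and 22.9 CPM with bilirubin. Mouse 1 held both the lowest vehicle and the highest bilirubin value. The fold change was 1.495 (log2 0.58, SE 0.095, adjusted p = 0.00777 in edgeR), and the call was lost without mouse 3 (adjusted p = 0.0532) and without mouse 4 (adjusted p = 0.0594).

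**Figure D2:**
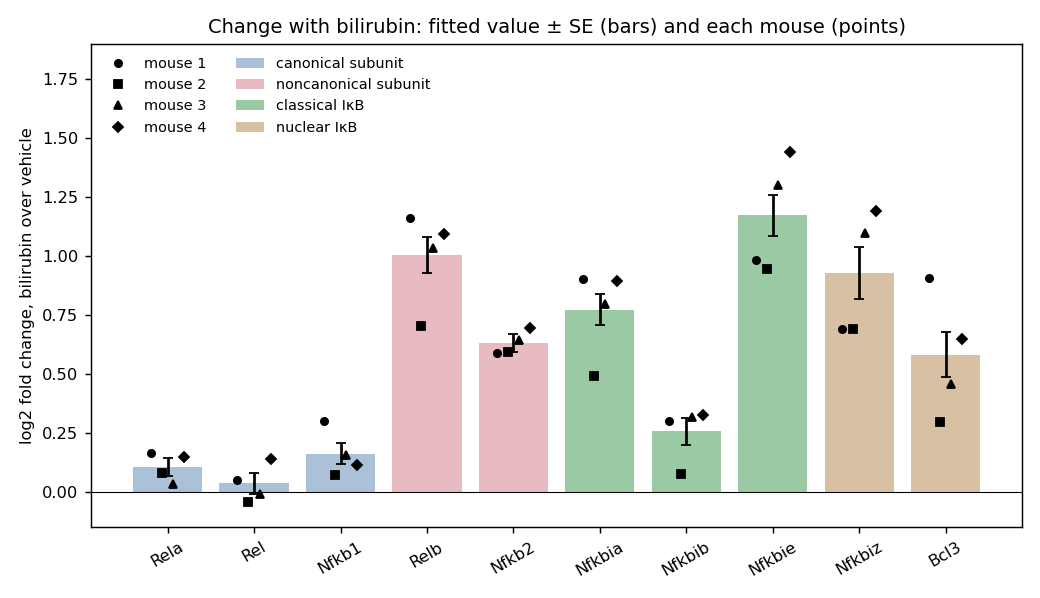
Bars from 0 give the fitted log2 fold change of bilirubin over vehicle for each of the 10 genes with its SE, and points give the difference in each mouse. Nfkbie, Relb and Nfkbiz lie highest, while Rel lies near 0 with mice on both sides of it.

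The size of the difference varied between the pairs of cultures. Each mouse gave 1 culture per treatment, so variation between mice and between cultures cannot be told apart. The counts below were not taken over all called genes. Among the 7 genes called higher, mouse 2 had the smallest log2 difference for 6 and mouse 1 for the remaining 1, *Nfkb2*. Mouse 4 had the greatest difference for 4 and mouse 1 for 3. The median log2 difference over all tested genes was near 0 in every mouse, from -0.0011 to 0.0018. TMM scaling holds this median near 0, so it does not show whether other genes differed between mice likewise. For *Relb* the difference ranged from 0.70 in mouse 2 to 1.16 in mouse 1, and for *Bcl3* from 0.30 to 0.91 in the same mice.

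*Relb* and *Bcl3* lie on the same strand of chromosome 7, 178127 bases apart. *Nfkbib* lies on that chromosome too, and *Rela* and *Nfkb2* share chromosome 19 at a distance of 40594597 bases. In the GENCODE vM39 annotation, *Nfkb1* overlaps *Gm43430* on its own strand. *Rela*, *Nfkb1*, *Nfkb2*, *Nfkbia*, *Nfkbib* and *Bcl3* each overlap a gene on the opposite strand, and whether counting used strand is not given in the sources used here, so reads of these genes and their partners may not be told apart.

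Levels were compared between genes in TPM, a relative transcript abundance that corrects for transcript length. In vehicle cultures *Nfkbia* was highest, at 99.97 ± 8.0 TPM (SD, n = 4). It was followed by *Rela* at 75.7 ± 0.44, *Nfkb1* at 53.9 ± 2.66, *Nfkbib* at 37.1 ± 1.87 and *Nfkb2* at 23.1 ± 1.24 TPM, with no overlap between neighbours in this order. *Bcl3* (13.7 ± 0.77 TPM), *Relb* (13.3 ± 1.04 TPM) and *Nfkbie* (12.8 ± 0.32 TPM) overlapped with one another and could not be ordered. *Rel* (10.3 ± 0.22 TPM) and *Nfkbiz* (2.69 ± 0.31 TPM) came last.

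With bilirubin the same 5 genes had the highest means in the same order, led by *Nfkbia* at 168 TPM. *Nfkbie* at 28.1, *Relb* at 23.8 and *Bcl3* at 20.2 TPM again overlapped with one another, and *Rel* was at 10.3 TPM. Between treatments, TPM of vehicle and bilirubin cultures overlapped for *Rela*, *Nfkb1*, *Rel* and *Nfkbib*, although CPM of *Rela* and *Nfkbib* did not. *Rela* and *Relb* stand lower when only their protein-coding transcripts are summed. By that measure vehicle *Rela* was at 41.9 ± 0.18 TPM, below *Nfkb1* at 48.0 TPM, and *Relb* went from 10.1 ± 0.59 to 20.1 ± 2.66 TPM.

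**Figure D3:**
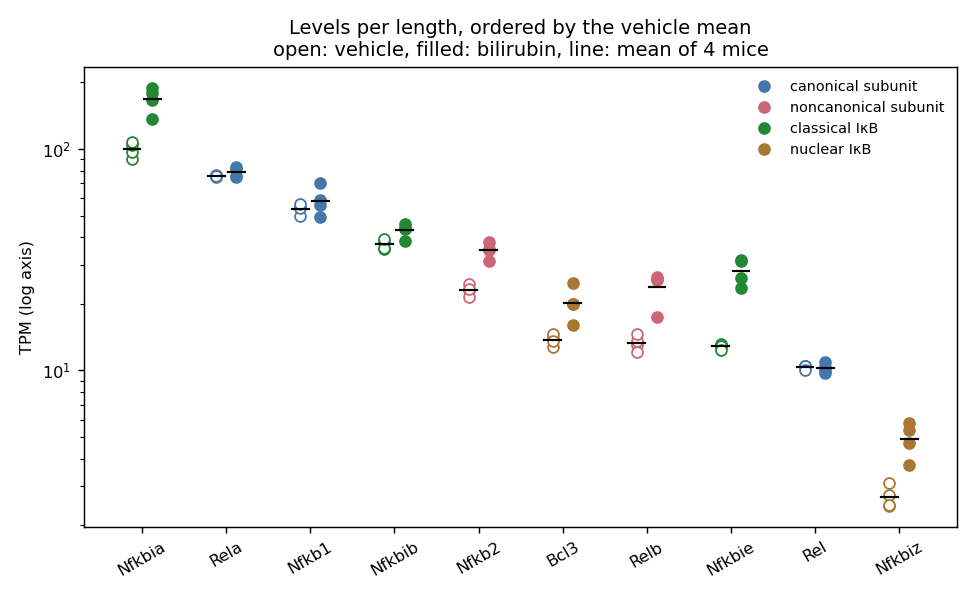
TPM of the 10 genes is plotted on a log axis for each vehicle (open) and bilirubin (filled) culture, with lines at the means of 4 mice and genes ordered by vehicle mean. Nfkbia leads in both groups, and Bcl3, Relb and Nfkbie lie at about the same vehicle level.

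The makeup of the subunit transcripts was compared as a description of these values, without a test. Of the summed TPM of the 5 subunit genes, *Relb* held 7.55% ± 0.42 with vehicle and 11.5% ± 1.35 with bilirubin (SD, n = 4), and *Nfkb2* held 13.1% ± 0.49 and 17.0% ± 1.12. *Rela* held 42.9% ± 1.11 with vehicle and 38.3% ± 2.13 with bilirubin, and *Rel* 5.87% ± 0.25 and 4.99% ± 0.21. The cultures of the groups did not overlap for these 4 genes, but did for *Nfkb1*, at 30.5% ± 0.76 and 28.3% ± 2.04. Over protein-coding transcripts alone *Nfkb1* held 36.1% ± 1.46 and 32.2% ± 1.52, without overlap, and the other 4 genes kept their direction. The noncanonical subunits together made up a greater share of subunit transcripts in every bilirubin culture, and *Rela* and *Nfkb1* were the most abundant in both groups. A lower share was not a lower level of *Rela*. The mean summed TPM was 176 with vehicle and 206 with bilirubin, and mean *Rela* was 75.7 and 78.7 TPM. Mean *Rel* was 10.3 TPM in both groups.

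Expressed as a ratio of TPM, *Relb* to *Rela* went from 0.176 to 0.302, a log2 change of 0.86, 0.55, 0.91 and 0.75 in mice 1 to 4. *Nfkb2* to *Nfkb1* went from 0.430 to 0.603, with log2 changes of 0.24, 0.55, 0.52 and 0.61. Both ratios were higher with bilirubin in each mouse, without overlap between the groups. The ratio within the canonical pair, *Nfkb1* to *Rela*, had a mean log2 change of 0.055 and overlapped. The ratio of *Rel* to *Rela* also overlapped between groups (mean log2 change -0.067), although it was lower with bilirubin in each mouse.

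Inhibitor transcripts were likewise set against subunit transcripts. The summed TPM of *Nfkbia*, *Nfkbib* and *Nfkbie* was 0.850 ± 0.048 times that of the 5 subunit genes with vehicle and 1.16 ± 0.11 times with bilirubin (SD, n = 4), and no cultures overlapped. Over protein-coding transcripts alone, an alternative added after the data had been seen, it was 1.11 ± 0.098 times and 1.46 ± 0.16 times, also without overlap, so whether the ratio lies below or above 1 with vehicle depends on the transcripts counted. Within the inhibitors, *Nfkbie* went from 8.60% to 11.7% of their summed TPM and *Nfkbia* from 66.6% to 70.1%. The share of *Nfkbib* went from 24.8% to 18.1%, although its own mean was 37.1 TPM with vehicle and 43.0 TPM with bilirubin. Over protein-coding transcripts the *Nfkbia* share overlapped between the groups. These are mRNA levels, and protein amounts or processing of the precursors were not measured in these libraries.

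The deposited transcript estimates hold 56 transcripts of these genes, of which 28 passed the filter and 15 held at least 10% of their gene's TPM. None of the 28 reached an adjusted p under 0.05 in edgeR over the 38206 tested transcripts, where 14 were called (0.0366%), 10 of them as higher (0.0262%). At an unadjusted p under 0.05, 10 of the 28 passed in either direction, against 7.54% of all tested transcripts. Among these 10, a transcript of *Relb* (log2 -2.64) and another of *Nfkb2* (log2 -4.57) were lower with bilirubin. Both held under 10% of their gene's TPM, and the rest of the 10 were higher. In limma-voom, added after the data had been seen, 5 of the 28 were called higher, where 0.552% of all transcripts were. Salmon divides reads shared by transcripts of a gene by a statistical model, so shares of similar transcripts are uncertain.

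*Rela* was split between the full protein-coding Rela-201, with 54.9% ± 1.11 of its vehicle TPM, and Rela-203, a short transcript of 5 exons annotated as a retained intron, with 40.5% ± 1.07. The shares were close to these in bilirubin cultures, at 53.5% ± 2.48 and 39.8% ± 1.71 (SD, n = 4). *Rel* had a single transcript. *Nfkb1* was led by Nfkb1-206, with 59.2% ± 2.23 of its vehicle TPM, ahead of Nfkb1-201 with 16.9% and Nfkb1-203 with 12.99%.

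The protein-coding Relb-202 held 56.7%, 77.1%, 64.7% and 43.3% of *Relb* TPM in vehicle cultures of mice 1 to 4 and 68.8%, 83.9%, 75.2% and 69.2% in their bilirubin cultures. Relb-209, annotated as a target of nonsense-mediated decay, held 24.0%, 11.3%, 16.9% and 27.0% with vehicle and 4.29%, 0.0%, 10.4% and 14.998% with bilirubin. The share of Relb-202 was higher and that of Relb-209 lower with bilirubin in each mouse, but both overlapped between the groups. Relb-202 was at 7.95 ± 1.34 TPM in vehicle and 17.5 ± 1.98 TPM in bilirubin cultures (log2 1.19, adjusted p = 0.133 in edgeR, not called).

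For *Nfkb2*, 2 protein-coding transcripts dominated. Nfkb2-201 held 61.8% ± 6.63 with vehicle and 68.9% ± 3.77 with bilirubin, and Nfkb2-202 held 31.0% ± 6.36 and 25.1% ± 4.11, with overlapping cultures in both cases. The IκB genes were each carried by 1 transcript, from 93.3% for Nfkbiz-204 to 99.0% for Nfkbib-202 of vehicle TPM. Nfkbie-201 had the lowest adjusted p of the main transcripts, 0.0775 in edgeR, with a log2 fold change of 1.14.

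**Figure D4:**
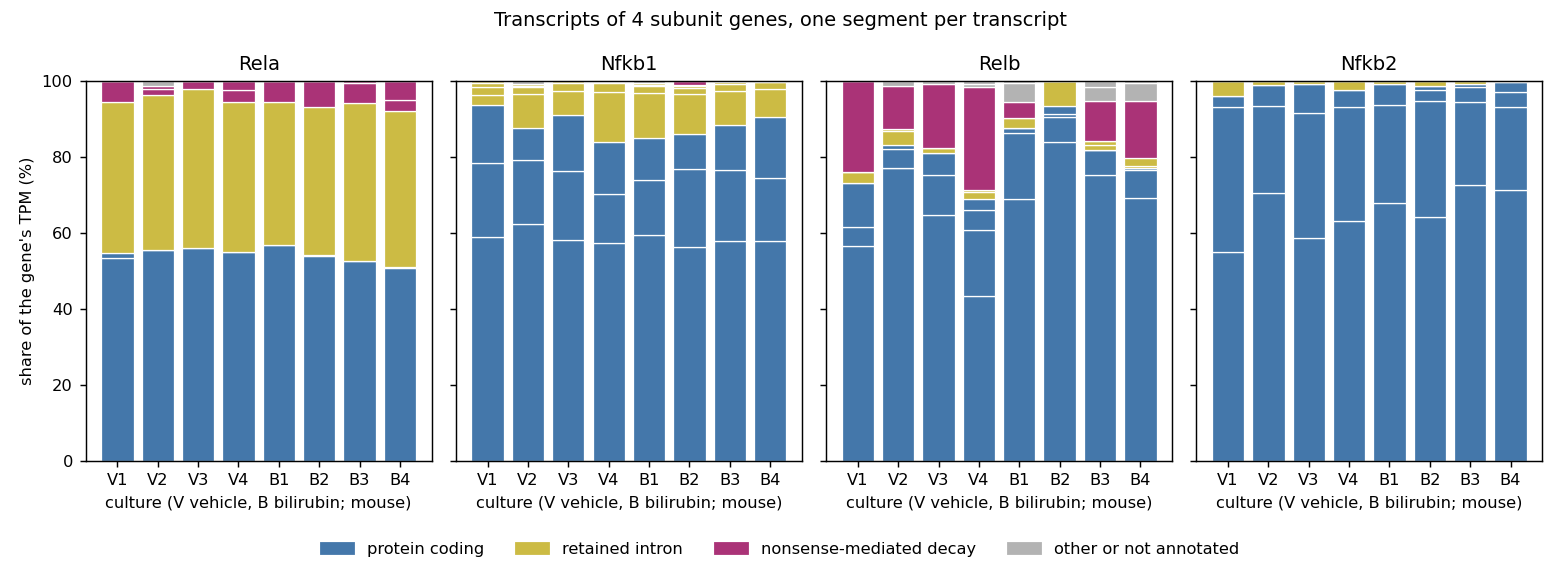
Stacked bars give the percent of TPM held by each transcript of Rela, Nfkb1, Relb and Nfkb2 in each of the 4 vehicle (V) and 4 bilirubin (B) cultures, coloured by annotated type. Rela divides between a protein-coding and a retained-intron transcript in every culture, and in Relb the nonsense-mediated decay segment is shorter with bilirubin in each mouse.

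Genes that act above and below the NFκB dimers were examined as lists chosen with earlier results of these data known. Over all tested genes, 4.49% were called higher and 3.04% lower, the background for each of these lists. Of 23 tested genes of the IκB kinase complex and its upstream adaptors, 1 was called higher and 1 lower. These were *Malt1*, a protease and scaffold of the CARD-BCL10-MALT1 complex (log2 0.39, adjusted p = 0.00246 in edgeR), and *Traf6*, the ubiquitin ligase of Toll-like receptor signaling (log2 -0.29, adjusted p = 0.00478 in edgeR). The shares of the list called higher and lower and its median log2 fold change, -0.013, were close to those of all genes. The kinase genes themselves, *Chuk* (log2 0.0092) and *Ikbkb* (log2 0.037), and the regulatory subunit gene *Ikbkg* (log2 0.011) were not called.

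Of 12 genes of the noncanonical pathway other than *Relb* and *Nfkb2*, 3 were called higher and 0 lower, with a median of 0.11. *Birc3*, a ubiquitin ligase that restrains NIK, went from 22.7 ± 1.04 to 38.3 ± 2.48 CPM (log2 0.76, adjusted p = 2.75e-04 in edgeR). *Tnfrsf1b*, a receptor for TNF, went from 359 ± 23.9 to 477 ± 29.7 CPM (log2 0.41, adjusted p = 5.78e-04 in edgeR). *Traf3*, an adaptor that also limits NIK, was 0.41 higher on the log2 scale (adjusted p = 0.00265 in edgeR). *Map3k14*, which encodes NIK, was not called, at 17.1 ± 1.64 CPM in vehicle and 18.3 ± 0.56 CPM in bilirubin cultures.

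Of 17 tested feedback inhibitors and deubiquitinases, 7 were called higher and 0 lower, with a median of 0.083. The leading genes were *Tnip3*, *N4bp1* and *Tnip1*. *Tnip3*, whose product binds the deubiquitinase A20, went from 43.5 ± 6.97 to 100.9 ± 23.3 CPM (log2 1.199, adjusted p = 1.70e-05 in edgeR). *N4bp1* (log2 0.44, adjusted p = 8.48e-04 in edgeR) and *Tnip1* (log2 0.52, adjusted p = 9.73e-04 in edgeR) were also higher. Without mouse 3 the list had 4 genes called higher.

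Of 37 tested genes of a list of known NFκB targets, 26 were called higher and 5 lower, with a median of 0.82. The list holds 40 genes. *Il6*, *Il12b* and *Vcam1* did not pass the filter, with at most 7, 4 and 17 counts in any library of either group. The list includes inflammatory genes already prominent in the earlier results of these cultures. Its smallest adjusted p-values were those of the acute-phase gene *Saa3* (log2 5.32), the complement gene *C3* (log2 3.05) and *Acod1*, which makes itaconate (log2 3.39). In contrast, *Bcl2l1*, which encodes the survival protein Bcl-xL (log2 -0.43, adjusted p = 4.27e-04 in edgeR), the chemokine gene *Ccl4* (log2 -0.62, adjusted p = 0.00148 in edgeR) and *Bcl2a1b*, of the Bcl-2 family (log2 -0.59, adjusted p = 0.0025 in edgeR), were lower with bilirubin. The lists share some genes. *Birc3* is in both this list and the noncanonical list, and *Tnfaip3*, also called higher, is in both this list and the feedback list. *Chuk* and *Traf2*, neither of them called, are in both the kinase and adaptor list and the noncanonical list.

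**Figure D5:**
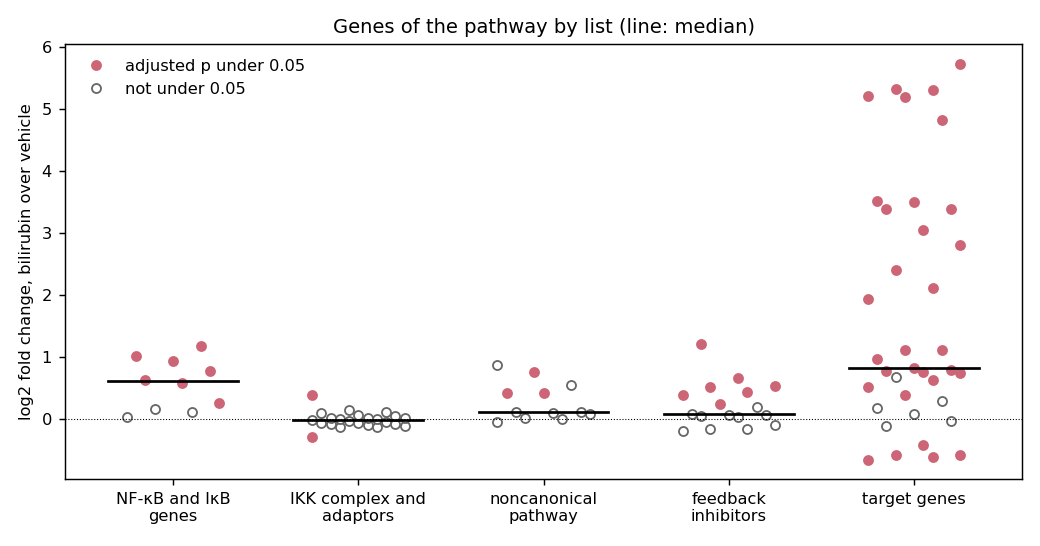
Log2 fold changes of bilirubin over vehicle are plotted for every tested gene of each list, with called genes marked apart from the rest. Lines give the medians: -0.013 for the kinase and adaptor list and 0.82 for the target list, which spreads furthest and has 5 called genes below 0.

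As a description across the 8 libraries, which share mice and treatment groups, *Relb* levels on the log2 CPM scale ran with those of *Nfkb2* (Pearson r = 0.978) and *Nfkbia* (r = 0.981), and those of *Nfkb2* with *Nfkbie* (r = 0.983). *Rel* had no correlation above 0.664 with the other genes. Among 13712 other tested genes, the most alike in pattern was *Il2rg* for *Relb* (r = 0.993), *Ctsk* for *Nfkb2* (r = 0.996), *Epn2* for *Nfkbia* (r = 0.996), *Pcx* for *Nfkbie* (r = 0.995), *Rpe* for *Nfkbib* (r = 0.992), *Sgo2a* for *Nfkbiz* (r = 0.993) and *Rrad* for *Bcl3* (r = 0.997). For the canonical subunits it was *Bvht* for *Rela* (r = 0.980), *Casp6* for *Nfkb1* (r = 0.979) and *Alg6* for *Rel* (r = 0.960). With 8 points and this many genes compared, values of this size carry no test.

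The cultures expressed macrophage markers. Of 7 such markers, *Adgre1*, *Itgam* and *Lyz2* were called higher and the other 4 were not called, at log2 fold changes of -0.015 for *Csf1r*, -0.16 for *Cd68*, -0.15 for *Mertk* and -0.20 for *Fcgr1*, with a median of -0.015 over the list. Their summed CPM ranged from 24024 to 24382 with vehicle and from 27436 to 29961 with bilirubin, most of it from *Lyz2*, whose mean went from 19145 to 24369 CPM. Of 10 markers of neutrophils and their precursors, only *S100a8* and *Mpo* passed the filter. *S100a8* was called higher, at 11.5 ± 1.15 CPM in vehicle and 24.4 ± 5.55 CPM in bilirubin cultures, and the list summed to 11.4 to 14.1 and 20.4 to 32.2 CPM. *Retnlg* was at 0 in every library and *Ly6g* at 3 counts or fewer. None of the lymphocyte, dendritic or mast cell and basophil markers passed the filter, and their sums reached at most 0.61 CPM. Of 6 stromal markers, 2 passed the filter without a call, summing to 0.8285 to 5.50 CPM with vehicle and 0.585 to 5.64 CPM with bilirubin. The part of other cell types in the changes of the NFκB and IκB genes was not tested.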

How the data were processed

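RNA was sequenced from 8 BMDM cultures of 4 mice, as poly-A selected paired-end libraries. Per the study's methods and the submitters' processing notes, the authors trimmed reads with Trim Galore 0.6.7 and Cutadapt 3.4, aligned them with STAR 2.7.9a to GRCm39 and quantified transcripts with Salmon 1.10.1. The authors deposited expected counts from Salmon summed per gene, with no scaling, together with per-library expected counts and TPM for 142434 transcripts. Summed transcript counts equalled the gene table (largest difference 2.33e-10).

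The 10 genes, the gene lists and the promoter windows shown were chosen with earlier results of these data known. Every one of the 10 genes is named, and list examples are the 3 genes with the smallest adjusted p in each direction among those called. For each of the 10 genes, the tested gene with the highest Pearson correlation is given. Transcripts are named where they hold at least 10% of a gene's TPM.

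Counts were rounded and fitted in R 4.3.3 with edgeR 4.0.16, with TMM scaling, filterByExpr (minimum count 10, minimum total 15), mouse and treatment as model terms, the quasi-likelihood test (two-sided) and Benjamini-Hochberg adjustment over all tested genes, at a threshold of 0.05. Log2 CPM used a prior count of 2. The labels pair the cultures by mouse and the study used the mouse as a covariate. Within a mouse, the 2 cultures' deviations from the group means correlated at 0.108, 0.134, 0.108 and -0.0053, with a mean of 0.0862 against -0.0279 for cultures of different mice. Libraries held 34142781 to 47071714 counts on genes, and the spread between the 4 mice of a group includes counting error. Alternatives were no replicate block, DESeq2 1.42.0, limma 3.58.1 (voom), other scalings and filters, a transcript length offset and each mouse left out. Fits of transcripts by limma-voom and sums over protein-coding transcripts were added after the data had been seen. One further macrophage marker of the list is not reported here. Transcript types and gene positions came from GENCODE vM39, and promoter sequences from RefSeq on GRCm38.p6.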

Additional observations from a re-analysis of the deposited data

Results flagged for a closer look

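The vehicle culture of mouse 2 stood apart for *Nfkb1*, at 94.2 CPM, while the other 3 vehicle cultures were at 102.4 to 102.7 CPM. Its gap to the nearest culture was 0.955 of the group's whole range, above Dixon's 95% critical value for 4 samples. The 10 genes in both groups gave 20 sets of 4 cultures, and chance flags about 1 in 20 such sets.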

How the results depend on the processing

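The count of genes among the 10 called higher was between 5 and 8 under all 12 alternatives of the gene fit, and none was called lower. *Relb*, *Nfkb2*, *Nfkbia*, *Nfkbie* and *Nfkbiz* were called higher in all 12, *Bcl3* in 10, *Nfkbib* in 7, *Nfkb1* in 1, and *Rela* and *Rel* in 0. With 1 mouse left out the log2 fold change of *Rel* ran from -0.00061, without mouse 4, to 0.059. Over all genes, 1033 were called, against 686 with no replicate block, 1692 with no filter on low counts, 580 with a transcript length offset and 377 to 1910 with 1 mouse left out (1910 when mouse 1 was left out, 634 for mouse 2, 377 for mouse 3 and 441 for mouse 4). The share of called genes that were higher was 59.63%, against 48.66% with library size alone as the scaling, where the median of all genes moved to -0.028. Without the replicate block 3 transcripts of the 10 genes were called higher, in place of 0, and by limma-voom 5. By limma-voom 0.552% of all tested transcripts were called higher. That share was not taken for the fit without the block, so its 3 calls have no background to be set against. With 1 mouse left out, genes called higher ranged from 1 to 2 for the kinase and adaptor list and from 4 to 8 for the feedback list, and 0 to 1 of the feedback list were called lower, with 2, 8 and 1 all found without mouse 1. Over protein-coding transcripts alone, the log2 change was 0.96 for the ratio of *Relb* to *Rela*, 0.99 for *Relb* to *Rel* and -0.023 for *Rel* to *Rela*. The causes of these differences were not tested.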

Other observations

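Further genes named for the NFκB and IκB families were not called. *Nfkbid*, a nuclear IκB gene, had 12.5 ± 0.43 CPM in vehicle and 14.5 ± 0.36 CPM in bilirubin cultures (SD, n = 4) and was higher in all 4 mice (log2 0.21, SE 0.060, adjusted p = 0.0751 in edgeR). *Nfkbil1* (log2 0.038), *Nkap* (log2 0.020) and *Nkrf* (log2 -0.024) had adjusted p-values of 0.82 to 0.928 in edgeR.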
